A study of Mus musculus with 5 samples.

Results

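Endothelial cells line blood vessels, and 9 genes widely used to mark them were followed here across 5 RNA sequencing libraries of microglia, the resident macrophages of the brain. The 9 genes are Vwf, Egfl7, Flt1, Kdr, Tek, Cdh5, Pecam1, Esam and Cldn5, taken by symbol from the 21983 genes of the deposited count table. They were picked with results of these same libraries in view, so their differences between the groups are given as a description. Counts of members past a threshold are given beside the share over all genes and are no test of the members. The study, by its title, concerns loss of Ythdf2 from microglia and the vessels of the ischemic retina. Ythdf2 encodes a reader of m6A-modified RNA. Its stated aim was to find processes and pathways that change when microglia lose Ythdf2.

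All 5 libraries are labelled as primary microglia from brain. In 3 control libraries the genotype is Ythdf2fl/fl, that is, floxed Ythdf2 without a Cre. In 2 libraries it is Cx3cr1CreERT2 Ythdf2fl/fl, in which a tamoxifen-inducible Cre is driven from Cx3cr1, a gene of microglia and other myeloid cells. Both groups therefore carry the floxed allele, and Cre itself is present in one group only, so an effect of Cre or of the altered Cx3cr1 locus cannot be told apart from an effect of Ythdf2. The labels give no age, no tamoxifen schedule and no method of isolating the cells, and they do not say whether libraries came from separate animals or cultures. Any spread quoted is thus a spread between libraries that may be technical.

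The targeted gene was not lower in the libraries labelled as carrying Cre. Ythdf2 stood at 103.5 and 127 CPM in these 2 libraries, CPM being counts relative to the total of a library, and at 57.0, 69.2 and 68.8 in controls 1 to 3. The log2 difference was 0.83 (SE 0.207, adjusted p = 0.431 by edgeR's quasi-likelihood test with Benjamini-Hochberg adjustment). The 2 libraries are therefore called the libraries labelled knockout. Whether the counted reads lie in the floxed part of Ythdf2 cannot be seen in a table of counts per gene. Cx3cr1, where the Cre sits, measured 337 and 97.7 CPM where the label is knockout and 682, 992 and 681 CPM where it is control. Each library held 13947500 to 19577217 counts, so that 3 counts, used here as a detection floor, correspond to 0.162 to 0.223 CPM. Over the 12543 genes tested, edgeR called 0 at an adjusted p under 0.05 (smallest adjusted p = 0.231), 838 (6.68%) at an unadjusted p under 0.05, and limma-voom called 0. DESeq2 called 232 of the 13811 genes it tested.

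Endothelium is held together by junctions and steered by growth factors. VE-cadherin (Cdh5), PECAM-1 (Pecam1), ESAM (Esam) and claudin-5 (Cldn5) join neighbouring cells, and claudin-5 is the main tight junction claudin of the blood-brain barrier. VEGF acts through VEGFR2 (Kdr), while VEGFR1 (Flt1) binds VEGF tightly and limits its action on VEGFR2, and angiopoietins act through TIE2 (Tek). Von Willebrand factor (Vwf) is stored in Weibel-Palade bodies of endothelium and in platelets and tethers platelets to injured vessel wall, and Egfl7 is a secreted protein of vessel walls whose gene hosts miR-126. Some of these genes are also read outside endothelium: Flt1 in monocytes, macrophages and trophoblast, Vwf in megakaryocytes, Tek in some monocytes, and Pecam1 in platelets and leukocytes.

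The members split into genes with clear reads and genes with almost none. Promoters of endothelial genes often carry binding sites of ETS factors, whose core letters are GGAA. RefSeq promoter sequence on GRCm38.p6 was at hand for 5 of the 9 members, and the 250 bases before the start are shown for the member with the most counts, Flt1 (chr5:147726012-147726261, minus strand), and for the member with none, Cldn5 (chr16:18776597-18776846, plus strand). Capitals mark GGAA on either strand.
Flt1: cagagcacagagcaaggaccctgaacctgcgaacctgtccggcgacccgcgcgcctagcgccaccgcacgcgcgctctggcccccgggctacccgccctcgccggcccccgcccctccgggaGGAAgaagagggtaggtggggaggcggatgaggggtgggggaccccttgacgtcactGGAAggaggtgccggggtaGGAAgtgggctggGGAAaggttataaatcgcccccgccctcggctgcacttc
Cldn5: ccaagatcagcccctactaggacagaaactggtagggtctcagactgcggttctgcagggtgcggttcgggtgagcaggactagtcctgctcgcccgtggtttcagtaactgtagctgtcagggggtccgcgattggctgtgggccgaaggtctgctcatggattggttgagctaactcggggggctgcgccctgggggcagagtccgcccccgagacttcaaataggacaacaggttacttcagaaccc
Searched on both strands as GGAA or its reverse complement, this window held 4 matches in Flt1, 4 in Kdr, 2 in Tek and 0 in Cldn5, and 5, 3 and 1 at the 3 listed starts of Egfl7. Of the 32851 promoters of the same length, 93.4% held at least 1 match, with a median of 3. A match is a description of letters and says nothing about binding.

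Of 8452 counts on the 9 members over the 5 libraries, Flt1 took 54.8% and Vwf 36.3%. Per length of merged exons (RPKM, the CPM per kilobase of exon), Flt1 averaged 4.30 RPKM over the 5 libraries and Vwf 2.21 RPKM. Kdr at 0.657 RPKM and Cdh5 at 0.608 RPKM formed a lower pair. Then came Egfl7 at 0.151, Pecam1 at 0.0778, Esam at 0.0279 and Tek at 0.0128 RPKM, and Cldn5 was at 0. Flt1 lay above Vwf in every library except the library labelled knockout 2, where Flt1 was at 0.784 RPKM and Vwf at 5.09 RPKM. Over the 5 libraries Flt1 ran from 0.784 to 7.88 RPKM and Vwf from 0.514 to 5.09 RPKM. Kdr, at 0.383 to 1.02 RPKM, and Cdh5, at 0.206 to 0.902 RPKM, overlapped over most of their range.

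**Figure D1:**
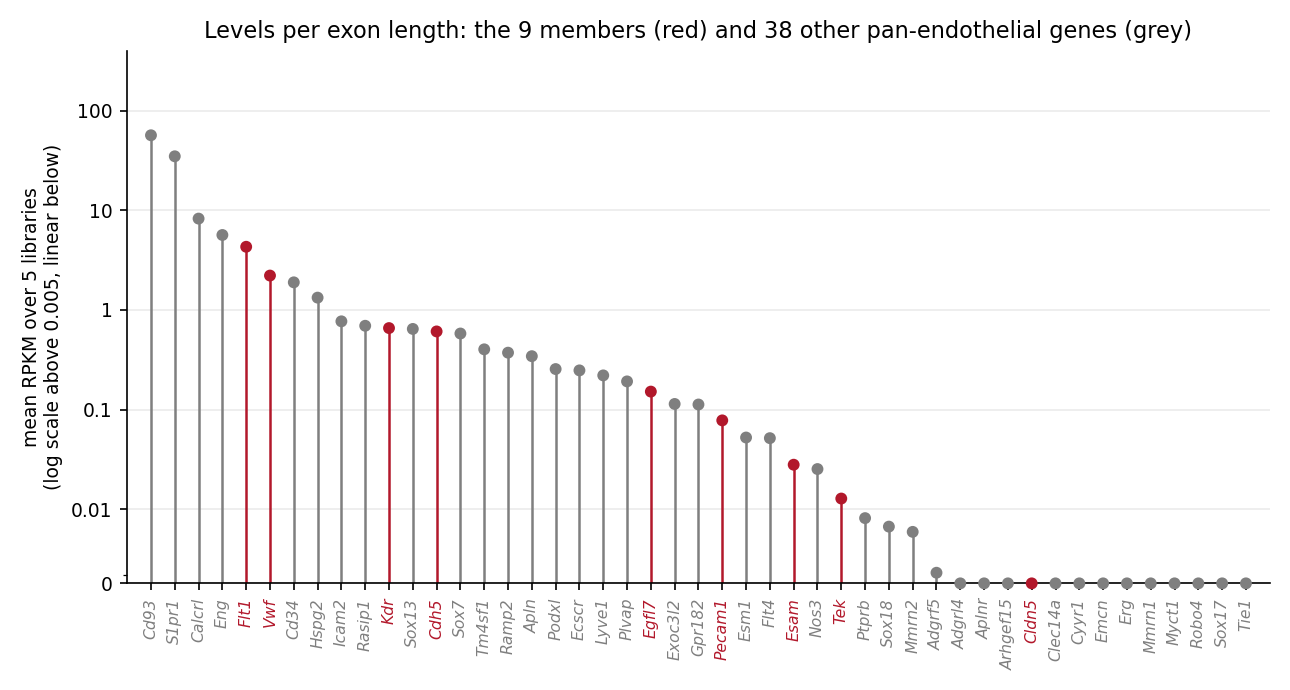
Level per exon length (RPKM), as the mean over the 5 libraries, of the 9 members and 38 other genes listed here as general endothelial markers, in order of that mean. Among the members, Flt1 and Vwf sit highest, at means of 4.30 and 2.21 RPKM, and Cldn5 has no count in any library.

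Among the secreted proteins, Vwf was the one member higher in both libraries labelled knockout than in every control. Vwf (ENSMUSG00000001930.17, chr6:125546774-125686679, plus strand, 56 merged exons) had 935 and 1513 counts in the libraries labelled knockout 1 and 2 and 214, 294 and 111 counts in controls 1 to 3. In CPM these were 55.6 and 81.8 against 13.5, 18.6 and 8.25. The lowest library labelled knockout thus lay well above the highest control. Means were 68.7 ± 18.5 CPM (SD, n = 2) and 13.4 ± 5.19 CPM (SD, n = 3), a ratio of 5.11, and the fitted log2 difference was 2.35 (SE 0.384). It ranged from 2.04 to 2.66 when each library was left out in turn. No exon of Vwf overlaps another annotated gene. In bulk RNA such as this, fewer cells of a type and less RNA per cell cannot be told apart, here and for every gene that follows.

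Egfl7 (chr2:26580014-26593120, plus strand) had 2 and 8 counts in the libraries labelled knockout and 15, 18 and 1 in controls. The groups overlapped, with control 3 lowest of all, and the fitted log2 difference was -1.37 (SE 1.11). On leaving out the library labelled knockout 1 it was -0.80, and on leaving out the library labelled knockout 2 it was -2.56. Its exons share 337 bases with genes on the same strand and 122 bases with genes on the other strand, Agpat2 among them, and no source used here says whether counting used strand, so reads of these genes may be mixed.

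Of the receptors, Flt1 varied most, and it did so within both groups. Flt1 (ENSMUSG00000029648.13, chr5:147561604-147726011, minus strand, 33 merged exons) stood at 71.9 CPM in the library labelled knockout 1 and at 10.6 CPM in the library labelled knockout 2. Controls 1 to 3 stood at 72.1, 106 and 29.7 CPM. Control 3 thus lay between the 2 libraries labelled knockout, and controls 1 and 2 lay above both, control 1 by only a little. The fitted log2 difference was -0.75 (SE 0.867), and it ran from -2.74 without the library labelled knockout 1 to 0.05 without the library labelled knockout 2. The table counts whole genes, so the soluble and the membrane form of VEGFR1 are not separated.

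Kdr (chr5:75932827-75978458, minus strand) had 118 and 64 counts in the libraries labelled knockout and 70, 88 and 124 in controls. In CPM these were 7.02 and 3.46 against 4.40, 5.58 and 9.22, and each group's range lay mostly inside the other's. The fitted log2 difference was -0.29 (SE 0.512), running from -0.91 without the library labelled knockout 1 to 0.14 without the library labelled knockout 2. Tek (chr4:94739289-94874976, plus strand) had 4 counts in the library labelled knockout 1, 1 count in control 1 and 0 in the other 3 libraries, too few for the fit.

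Of the junction genes, Cdh5 had the most reads. Cdh5 (chr8:104101625-104144511, plus strand) stood at 2.26 and 0.865 CPM in both libraries labelled knockout and at 3.71, 2.15 and 3.79 CPM in controls. The library labelled knockout 1 lay just above control 2, so the groups overlapped by that one pair. The fitted log2 difference was -1.05 (SE 0.596), running from -1.91 without the library labelled knockout 1 to -0.50 without the library labelled knockout 2.

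Pecam1 (chr11:106654217-106750628, minus strand) was the one member lower in both libraries labelled knockout than in every control, at a level close to the detection floor. It had 1 and 2 counts in the libraries labelled knockout, under the 3-count floor in each, and 15, 16 and 4 counts in controls. Summed over each group, 3 counts stood against 35. Control level was 9.13 times the level in the libraries labelled knockout, with a 95% exact interval of 2.88 to 46.4 that covers counting error only. The fitted log2 difference was -3.06 (SE 0.959) at edgeR's default prior count and -2.09 at a prior count of 2.

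The other junction genes were almost silent. Esam (chr9:37528078-37538319, plus strand) had 0 and 0 counts in the libraries labelled knockout and 4, 0 and 2 in controls. Cldn5 (chr16:18776847-18778262, plus strand, a single exon of 1416 bases) was listed at 0 in all 5 libraries. Of the 10 nearest protein-coding genes in the table around Cldn5, 7 had at least 10 counts in all. A listed 0 did also occur in genes that most cells use. Of 218 genes of the mitochondrial ribosome, complex I, proteasome, RNA polymerase II and translation initiation factor families, looked at after the values were seen, 7 (3.21%) were at 0 in all libraries. They are Mrps10, Mrps23, Mrpl53, Ndufs3 and Psmd10, and also Eif4e1b and Psmb11, which are read in few tissues.

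Over the 9 members, 6 had enough counts for the fit, of which Vwf alone had a positive log2 difference and 5 had a negative one, with a median of -0.90. Over all 12543 genes tested the median was 0.01 and 48.9% were negative. Members whose groups did not overlap numbered 1 above every control (Vwf) and 1 below every control (Pecam1), beside 9.85% and 10.4% of all genes tested (20.3% in either direction). The same 2 members had an unadjusted p under 0.05 by edgeR, beside 3.99% of all genes higher and 2.69% lower. DESeq2 called 1 member, Vwf, beside 1.68% of all genes it tested (1.06% higher and 0.623% lower), and edgeR called 0 of the 6, beside 0.0% of all genes. Since the members were chosen on this contrast, these counts are no test of the members and are given without a reading.

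**Figure D2:**
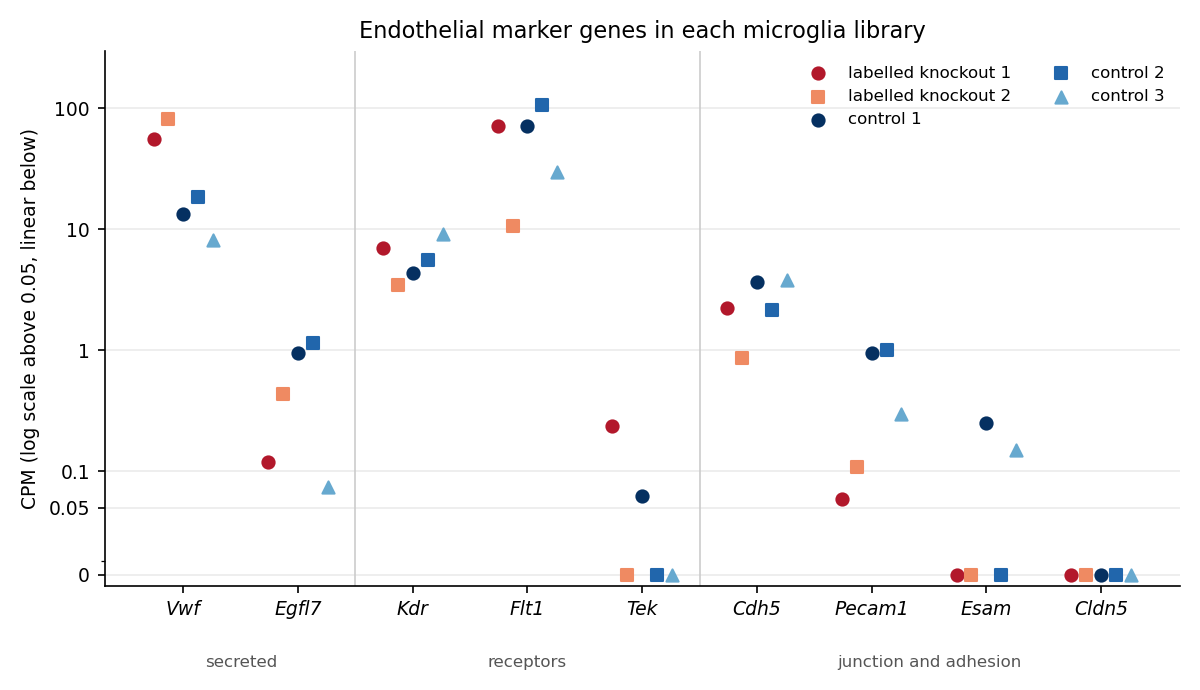
Level of each member in CPM, one point per library, for the 2 libraries labelled knockout and the 3 controls. Vwf lies at 55.6 and 81.8 CPM in the former and at 8.25 to 18.6 CPM in controls, while Flt1, Kdr and Cdh5 overlap between the groups.

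**Figure D3:**
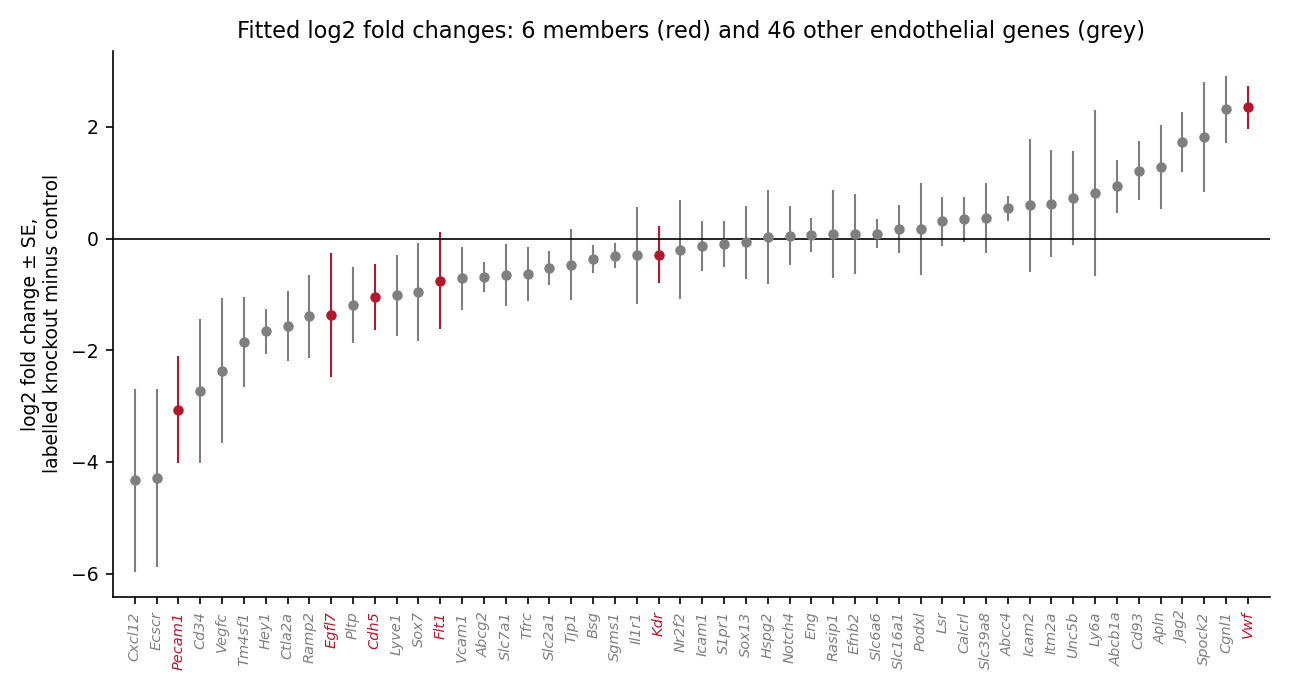
Fitted log2 difference of the 6 members with enough counts and of 46 other endothelial genes, libraries labelled knockout minus controls, with standard errors. Vwf is at 2.35, and the other members run from -0.29 for Kdr to -3.06 for Pecam1.

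The label of these genes as endothelial was set beside 92 other endothelial genes in 3 lists, 17 of which were at 0 in every library. Over the whole table, 15981 of 21983 genes had a count, and the rest were at 0 in every library too. The lists differed. Of 38 other genes listed here as general endothelial markers, 12 were at 0 in every library and 18 had fewer than 10 counts in all. Those at 0 include Tie1, the partner receptor of TIE2, Erg, the ETS factor that maintains endothelial identity, and Emcn, Robo4, Sox17, Clec14a and Adgrl4. The highest of the 38 were Cd93, a C1q-receptor-related protein also read in myeloid cells, at 419 and 731 CPM in both libraries labelled knockout and 144, 176 and 422 in controls, and S1pr1, a sphingosine-1-phosphate receptor, at 89.1 and 115 against 133, 137 and 56.9 CPM. Both overlapped between the groups. Of 33 genes of brain endothelium and the blood-brain barrier 3 were at 0 and 20 were tested, with a summed level of 2000 to 2479 CPM in the 5 libraries. A few genes made up most of that sum. Slc6a6 had 88301 counts over the 5 libraries, Bsg 22355 and Slc2a1 11844, while Mfsd2a had 27, Slco1a4 24 and Ly6c1 2. Of 22 genes of arterial, venous and activated endothelium 3 were at 0 and 10 were tested, with a sum of 118 to 153 CPM. Which cells the reads of the members came from was not tested.

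Over the 3 endothelial lists without the members, 46 of 92 genes were tested. Positive differences numbered 22 and negative 24, with a median log2 difference of -0.08. Above every control were 5 genes and below every control 8, beside 9.85% and 10.4% of all genes tested. Over all genes tested, 3.99% were higher and 2.69% lower at an unadjusted p under 0.05 by edgeR. DESeq2 called 1.06% of the genes it tested higher and 0.623% lower. The same shares apply to each list that follows. By edgeR 0 of these endothelial genes were called, with 2 higher and 5 lower at an unadjusted p under 0.05. DESeq2 called 1 of them higher and 1 lower. The former was Cgnl1, a junction-associated protein related to cingulin, at 63.0 and 29.9 CPM in both libraries labelled knockout and 4.71, 6.78 and 16.6 in controls (log2 difference 2.32, SE 0.603). The latter was Hey1, a Notch target of arterial endothelium, at 1.61 and 1.73 CPM against 4.97, 5.13 and 5.80 (log2 difference -1.66, SE 0.401). DESeq2 kept its call in 2 of 5 fits with a library left out for Cgnl1, losing it without the library labelled knockout 1 and without controls 1 or 2, and in 0 of 5 for Hey1.

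The partners of the junction genes inside the cell were well read, with differences on both sides of 0. Of 19 such genes 17 were tested, with 9 positive and 8 negative differences and a median of 0.05, 0 called by edgeR (2 higher and 1 lower at an unadjusted p under 0.05) and 0 by DESeq2. Beta-catenin (Ctnnb1) and alpha-catenin (Ctnna1), which tie cadherins to actin in most cell types, had log2 differences of -0.13 and 0.05.

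Among 19 genes of the VEGF and angiopoietin pathway in the table, 14 were tested, 4 positive and 10 negative, with a median log2 difference of -0.49. EdgeR called 0 of them (1 higher and 2 lower at an unadjusted p under 0.05), and DESeq2 called Vegfa as lower. Vegfa, the main ligand of VEGFR1 and VEGFR2, measured 9.87 and 24.2 CPM in both libraries labelled knockout and 124, 80.3 and 34.3 CPM in controls, with no overlap between the groups. Its log2 difference was -2.22 (SE 0.665), and the DESeq2 call was lost without the library labelled knockout 1, without control 1 or without control 2. Vegfb, a ligand of VEGFR1 alone, went the other way at 56.7 and 91.3 CPM against 51.2, 37.8 and 40.7, a log2 difference of 0.78 (SE 0.279, adjusted p = 0.679 by edgeR's quasi-likelihood test with Benjamini-Hochberg adjustment).

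Other ligands had fewer reads. Pgf, which also binds VEGFR1, had 4 and 3 counts against 12, 12 and 1, and Vegfc had 2 and 3 counts against 15, 20 and 0. Of the TIE2 ligands, Angpt1, the agonist, had 0 and 0 counts against 0, 1 and 4, and Angpt2, which Weibel-Palade bodies also store, stood at 0.833 and 1.73 CPM against 2.01, 1.65 and 5.87. Angpt4, another angiopoietin, had more reads than either, with 5.65 and 1.89 CPM against 9.30, 9.25 and 0.149. Control 3 was lowest for Pgf, Vegfc and Angpt4 and highest for Angpt2.

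Partners of von Willebrand factor in storage and haemostasis lay on both sides of 0. Of 32 genes 26 were tested, 15 positive and 11 negative, with a median log2 difference of 0.09. EdgeR called 0 (2 higher and 1 lower at an unadjusted p under 0.05), and DESeq2 called 0 higher and 1 lower. P-selectin (Selp), which shares the Weibel-Palade body with von Willebrand factor, had 0 and 4 counts in the libraries labelled knockout and 0, 0 and 1 in controls. Factor VIII (F8), which von Willebrand factor carries in plasma, stood at 2.08 and 0.27 CPM against 0.503, 0.95 and 0.892, and Adamts13, the protease that cuts von Willebrand factor, had at most 4 counts in a library. Cd63, a membrane protein of Weibel-Palade bodies and of lysosomes in most cells, stood at 165 and 419 CPM against 455, 349 and 362.

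Markers of cell types other than endothelium were set beside the members, library by library. Megakaryocytes and platelets, the other known source of Vwf, had 8 of 19 markers tested, 2 above and 0 below every control, and 5 at 0 in every library (Gp1bb, Gp5, Treml1, Gata1 and Mmrn1). Of the 8 tested, 6 were positive, with a median log2 difference of 0.97. Their summed level was 124 and 466 CPM in both libraries labelled knockout and 89.3 to 420 CPM in controls. The groups overlapped in that sum, in which Thbs1 and Pf4 had the highest means. Choroid plexus epithelium, the cell layer that makes cerebrospinal fluid, was higher in both libraries labelled knockout, as Vwf was. Of its 15 tested markers 13 were above every control, beside 9.85% of all genes tested, and its summed level was 689 and 404 CPM against 106 to 252 CPM. Its markers Clic6, Kcnj13 and Kl had log2 differences of 6.06, 5.73 and 4.10. Within the group the order differed: the choroid plexus sum was highest in the library labelled knockout 1 and Vwf in the library labelled knockout 2. Border-associated macrophage markers had 1 of 9 tested above and 1 below every control, with overlapping sums of 7297 and 9647 CPM against 5627 to 10038 CPM. Monocyte markers had 2 of 7 above and 3 below, with sums of 602.55 and 282 CPM against 845 to 1179 CPM. Cx3cr1, where the Cre sits, is among those 3 and made up most of the monocyte sum in every control. Without it the monocyte sums of the groups overlapped. Single genes of both lists lay above every control. F13a1, a border-associated macrophage marker, stood at 79.1 and 185 CPM against 29.9, 47.0 and 23.9. Ace, listed here as a monocyte marker, stood at 38.5 and 13.1 CPM against 0.943, 1.01 and 2.45. Like the choroid plexus sum, and unlike Vwf, Ace was highest in the library labelled knockout 1. The part of these cells in the Vwf level was not tested.

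Flt1 followed another order. Oligodendrocyte markers, all 12 of them tested and 0 called, summed to 13262 and 4827 CPM in both libraries labelled knockout 1 and 2, while controls 1 to 3 gave 11064, 10067 and 1358 CPM. In both Flt1 and this sum, the library labelled knockout 2 and control 3 were the lowest, Flt1 being least in the former and the sum in the latter. Neuronal markers summed to 207 and 52.3 CPM against 80.7, 79.6 and 39.5, with the same libraries lowest. Their part in the Flt1 level was not tested.

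The members with few reads, Pecam1 and Egfl7, had most of them in controls 1 and 2. Fibroblast markers summed to 41.8 and 22.1 CPM in both libraries labelled knockout, while controls 1 to 3 summed to 144.5, 144.6 and 46.2 CPM. Of 11 fibroblast markers tested, 5 were below every control, beside 10.4% of all genes tested. Postn was among them, at 0.476 and 0.649 CPM against 50.4, 58.9 and 13.2. Of mural cells, which wrap vessels, 8 of 19 markers were tested, 4 positive and 4 negative, with 2 above and 1 below every control and 3 at 0 in every library. Their sum was 452 and 718 CPM against 292 to 561 CPM. Anpep made up most of it, with 32462 counts over the 5 libraries, while Pdgfrb had 45. DESeq2 called Notch3, a receptor of mural cells, as higher, at 6.60 and 1.24 CPM against 0.377, 0.0634 and 0.297 (log2 difference 3.96, SE 0.958). That call was lost on leaving out control 1, control 2 or the library labelled knockout 1, and an antisense gene overlaps its exons. Rgs5, a pericyte marker, had 2 counts in control 3 and 0 elsewhere. Red cell markers summed to 0.0629 to 0.535 CPM, with 6 of 7 at 0. Microglial markers summed to 5385 and 12365 CPM in both libraries labelled knockout, while controls ran from 10277 to 13291 CPM. The part of these cells in the Pecam1 and Egfl7 counts was not tested.

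**Figure D4:**
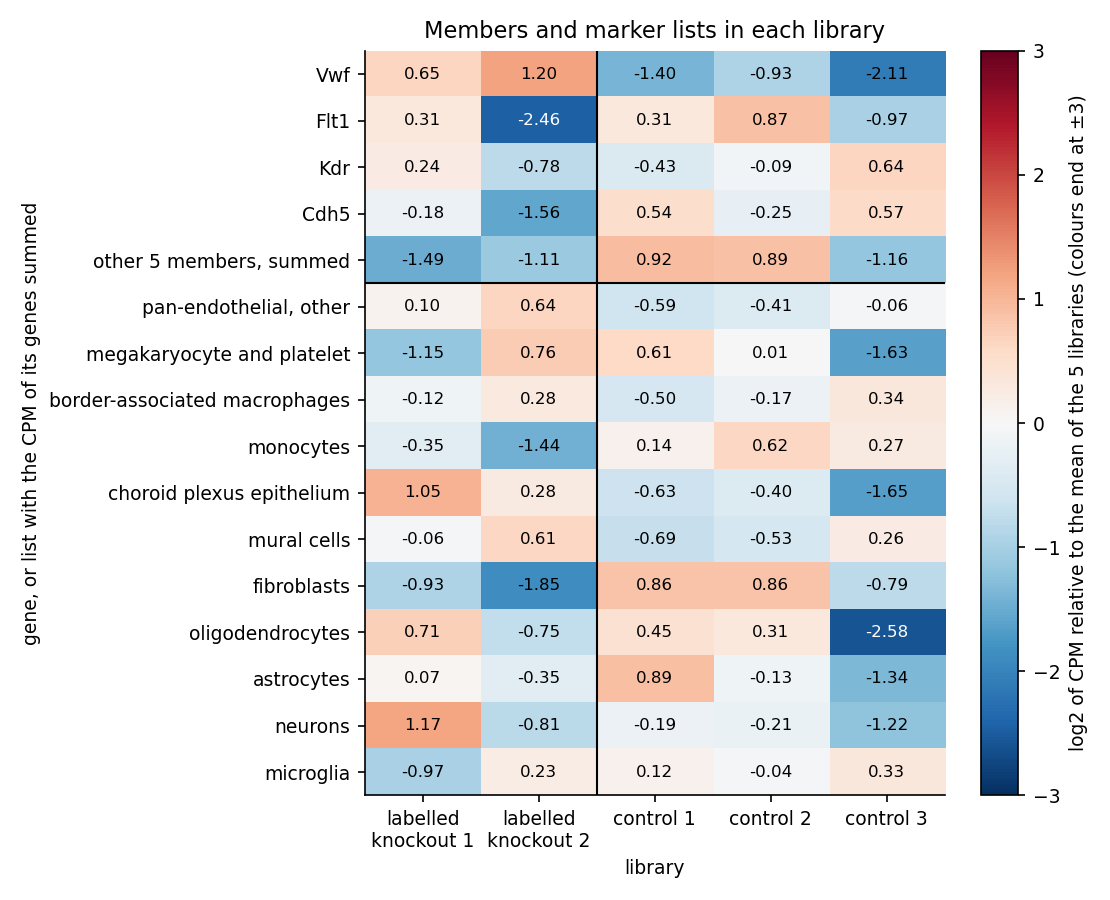
Level of Vwf, Flt1, the other members and each marker list in each library, as log2 relative to its own mean over the 5 libraries. Vwf is at 0.65 or above in the libraries labelled knockout and at -0.93 to -2.11 in controls, choroid plexus at 1.05 and 0.28 against -0.40 to -1.65, and Flt1 and oligodendrocytes are both lowest in the library labelled knockout 2 and control 3.

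The genes whose pattern was most like that of Vwf were not endothelial markers. Likeness was the root mean square difference between log2 CPM values centred on each gene's mean, over the 5 libraries and 11873 genes with a mean of at least 1 CPM. The nearest was Lsp1, a leukocyte actin-binding protein, with a difference of 0.148 and levels of 27.5 and 35.7 CPM in both libraries labelled knockout versus 7.17, 7.35 and 3.79. Next came Pira2, a leukocyte immunoglobulin-like receptor, at 0.203, Atrnl1 at 0.214, Emb at 0.240 and Cd33, a sialic acid-binding receptor of myeloid cells, at 0.249. Among the same genes Kdr ranked 10373, Cdh5 11461 and Flt1 11593, so the other well-read members were among those least like Vwf. The mean pattern of the other 8 members includes Cldn5, at 0 throughout, and Tek and Esam, with at most 4 counts in a library. Part of that mean thus rests on values at or near the floor. It was most like Gclm at 0.0859, Shmt2 at 0.0865, Errfi1 at 0.0879, Krba1 at 0.103 and Fam135a at 0.109, over 11871 genes. Vwf ranked 11628 in that order. These are descriptions over 5 libraries that share their depth and their mix of cells.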

How the data were processed

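Primary microglia of mouse brain were measured by RNA sequencing in 2 libraries labelled knockout and 3 controls. Per the labels, a NEBNext Ultra kit turned Trizol-extracted RNA into libraries. The values are the authors' deposited read counts, one whole number per gene and library, with no sign of scaling. Per the submitters' processing notes, FastQC, STAR and HTSeq were used with mm10. No source used here gives their versions, the annotation or the strand setting.

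Of 21983 genes, 15981 had a count and 21926 (99.7%) matched GENCODE M21, which gave coordinates on GRCm38 and exon lengths. All genes were fitted with edgeR 4.0.16 in R 4.3.3 (filterByExpr, TMM factors, robust quasi-likelihood F test, two-sided, default prior count, Benjamini-Hochberg adjustment over the 12543 genes tested, threshold 0.05, 3 residual degrees of freedom). CPM used TMM-scaled library sizes, and log2 CPM a prior count of 2. A standard error is the log2 difference divided by the square root of F. DESeq2 1.42.0 and limma-voom 3.58.1 were alternatives, with other scalings, filters, replicate blocks and each library left out. The fits were tested on simulated data.

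Groups came from the titles. The third control's title carries 2 numbers, and its library number was used. The numbers were not taken to pair samples. The members, the marker lists and the tests were chosen with earlier results of these data known. Named were all 9 members and, per list, genes called by edgeR or DESeq2 (at most 6), otherwise the 2 with the highest mean CPM, plus the direct partners and ligands. Results for some genes that this rule names are not reported here. From the lists beside the members only some of these are described. Further genes were picked after their values were seen: Tie1, Erg, Emcn, Robo4, Sox17, Clec14a, Adgrl4, Angpt4, Rgs5, Slc6a6, Bsg, Slc2a1, Mfsd2a, Slco1a4, Ly6c1, Anpep, Pdgfrb, and the subunit and olfactory receptor genes at 0.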

Additional observations from a re-analysis of the deposited data

How the results depend on the processing

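Vwf kept its direction and size under all 16 alternatives, with a log2 difference of 2.04 to 2.66. The number of genes called over the whole table depended on the method: 0 by edgeR under every scaling and filter, with any library left out and by limma-voom, against 232 by DESeq2. DESeq2 gave 87 to 470 with a library left out, the lowest without control 1 (102 without control 2) and the highest without the library labelled knockout 2 (170 without the library labelled knockout 1 and 305 without control 3). Of the other endothelial genes DESeq2 called 2, and 0 to 4 with a library left out (0 without control 1 or 2, 4 without control 3).

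The median log2 difference of the members ran from -1.41 without the library labelled knockout 1 to -0.23 without the library labelled knockout 2, and was -0.34 without control 2, where 4 members were tested. That of the other endothelial genes ran from -0.55 without the library labelled knockout 1 to 0.10 without control 2. Members above every control numbered 1 to 2 (2 without the library labelled knockout 2), and members below every control 1 to 4 (4 without the library labelled knockout 1, 3 without control 2 or control 3). Groups of fewer libraries separate more easily, and the share over all genes was not worked out for them. These counts are therefore given without a reading.

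With the replicate number as a block, 4 genes were called. Control 3 stood alone in its block there and added nothing to the group difference. That fit also had fewer residual degrees of freedom than the main fit. By library number, deviations from the group means correlated at r = 0.148 for number 1 and -0.562 for number 2. Control 3, whose title also carries the number 2, gave r = 0.473 with the library labelled knockout 2. With only 2 libraries labelled knockout, their deviations mirror each other, so these values cannot show whether samples were paired. With control 3 taken as number 2, the block gave 0 calls. Under the block, Vwf stood at 2.09, and the log2 differences of Ctnna1 (-0.087), Pf4 (-0.18) and Mbp (-0.40) changed sign.

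Limma-voom turned S1pr1 (0.00147), S100b (0.22) and F8 (-0.023). With a library left out, sign changes occurred in S1pr1 (-0.40 to 0.10), S100b (-0.72 to 0.58), F8 (-1.53 to 1.41), Ctnna1 (-0.14 to 0.21), Ctnnb1 (-0.32 to 0.0059), Pf4 (-2.26 to 2.08), Mbp (-0.42 to 0.71), Tubb3 (-0.48 to 1.66), Nefm (-0.042 to 2.08), Cd63 (-1.24 to 0.078) and Aldh1l1 (-0.024 to 0.21). The cause was not tested for any of these changes. Tek, Esam and Cldn5 had at most 4 counts in a library, and a difference was not detectable in them. Why Cldn5 is listed at 0 was not tested.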

Other observations

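Some zeros of the table come in runs along the chromosome. Trem2, the microglial receptor for lipids and apoptotic cells, was at 0 in every library together with its neighbour Treml1, in a run of 16 adjacent listed genes at 0, and 0 of the 10 nearest protein-coding genes around Trem2 had at least 10 counts. Aplnr, the apelin receptor of endothelium, lies in a run of 31 genes at 0, and 3 of its 10 nearest genes had at least 10 counts. That run includes the olfactory receptor genes Olfr987, Olfr988, Olfr992 and Olfr993. Around Cldn5, Tie1, Erg and Emcn most nearest genes had at least 10 counts (7, 9, 9 and 9 of 10). The same held for Mrpl53, a mitochondrial ribosome gene at 0, with 8 of 10. Well-read neighbours therefore cannot tell why a gene is listed at 0.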
